A study of Mus musculus with 6 samples.

Results

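The genes described here make cholesterol and fatty acids: 28 genes of 23329 named in the count tables, chosen by symbol, with 15 enzymes of sterol synthesis, 9 enzymes of fatty acid synthesis and 4 genes for regulation and transport of sterols. They were compared between primary cultures of mesenchymal cells, which support the epithelium, taken from C57 mouse small intestine. The 3 embryonic cultures were started at day 14.5 of gestation (E14.5), and the 3 adult ones from mice of unstated age. The embryonic gut was cut up, whereas villi were scraped off the opened adult gut. Both then lost their epithelium by chelation, were digested with enzymes and were plated, with no sort named, in a medium with serum and the inhibitor Y27632, and RNA was taken at passage 2 to 3. No genotype or treatment that differs between the groups is given in the labels, the deposited tables of both groups carry the letters PBS in their names without explanation, and whether each culture had its own animal is not told.

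Cells build cholesterol from acetyl-CoA through mevalonate, isoprenoid units, squalene and lanosterol, and they build saturated fatty acids from the same precursor through malonyl-CoA, which desaturases and elongases then modify. Transcription of both branches is driven by the SREBP proteins, which are held in the endoplasmic reticulum by INSIG while sterols are plentiful and are released when sterols run low. SREBP2, the product of Srebf2, is known mainly for sterol genes, and SREBP1, the product of Srebf1, mainly for fatty acid genes.

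All 28 genes had enough counts to be tested, among 13478 genes tested in all. Total gene counts ran from 18850224 to 32672370 per library. Levels are given as CPM, the counts of a gene per 1000000 counts of the TMM-adjusted library size. Mesenchymal markers were abundant, with 10 listed genes summing to 35250 to 58277 CPM per library, and the 10 epithelial markers summed to at most 1.34 CPM in any library, with Fabp1, Fabp2 and Apoa4 at 0 counts in all. Pdgfra, a fibroblast receptor gene, was the 1 mesenchymal marker that edgeR called, with 2.47, 3.85 and 4.45 CPM across E14.5 replicates 1, 2 and 3, and 29.5, 81.0 and 31.7 CPM in the adult ones. Limma-voom called 0 of the 10, and DESeq2 called Pdgfra, Col1a2 and Pdgfrb lower and Des higher in E14.5. Over all 13478 tested genes, DESeq2 called 691 higher and 736 lower in E14.5, and edgeR gave 17.9% an unadjusted p under 0.05. The libraries were not alike in other cell types. Macrophage and leukocyte markers (10 genes) summed to 219, 421 and 2628 CPM across E14.5 replicates 1, 2 and 3, against 20.1 to 193 CPM in adults; edgeR called 0 of the 10, with 9 at an unadjusted p under 0.05, and DESeq2 called 9 as higher in E14.5. Endothelial markers (10 genes) were high in adult replicates 2 (1976 CPM in sum) and 3 (444 CPM), and the remaining 4 libraries held 17.1 to 36.5 CPM; edgeR called 0 and DESeq2 called 6 as lower in E14.5. Mesothelial markers (7 genes) reached 789 CPM in E14.5 replicate 2, within the adult range of 545 to 1487 CPM, while E14.5 replicates 1 and 3 had 163 and 153 CPM; edgeR called 0 and DESeq2 called 2 as lower in E14.5. Enteric neuron and glia markers (8 genes) summed to at most 20.5 CPM. In such bulk samples, fewer cells of a type and less RNA per cell cannot be told apart.

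One gene of the 28, the desaturase gene Scd1, passed the test between the stages, and it was lower in E14.5 cultures. In edgeR's quasi-likelihood test, 1.08% of all tested genes passed at an adjusted p of 0.05, 0.838% as lower and 0.245% as higher in E14.5. For the 28 genes this came to 1 lower and 0 higher. At an unadjusted p under 0.05 there were 7 of 28, all with lower values in E14.5, against 17.9% of all tested genes. The log2 fold change was negative for 23 of 28, against 48.5% of all tested genes, with a median of -0.34 where the median over all genes was 0.01. For 11 of the 28 every E14.5 library lay below every adult library, against 12.0% of all tested genes, and for 0 the order was the opposite, against 12.1%. DESeq2 called 4 of the 28, all lower in E14.5 (Scd1, Elovl6, Sqle and Cyp51), against 5.46% of genes called lower by that tool. Limma-voom called 1, Scd1, against 1.02% of genes in either direction. The 28 genes were chosen with earlier results of these data known, so the shares describe them and test nothing.

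**Figure D1:**
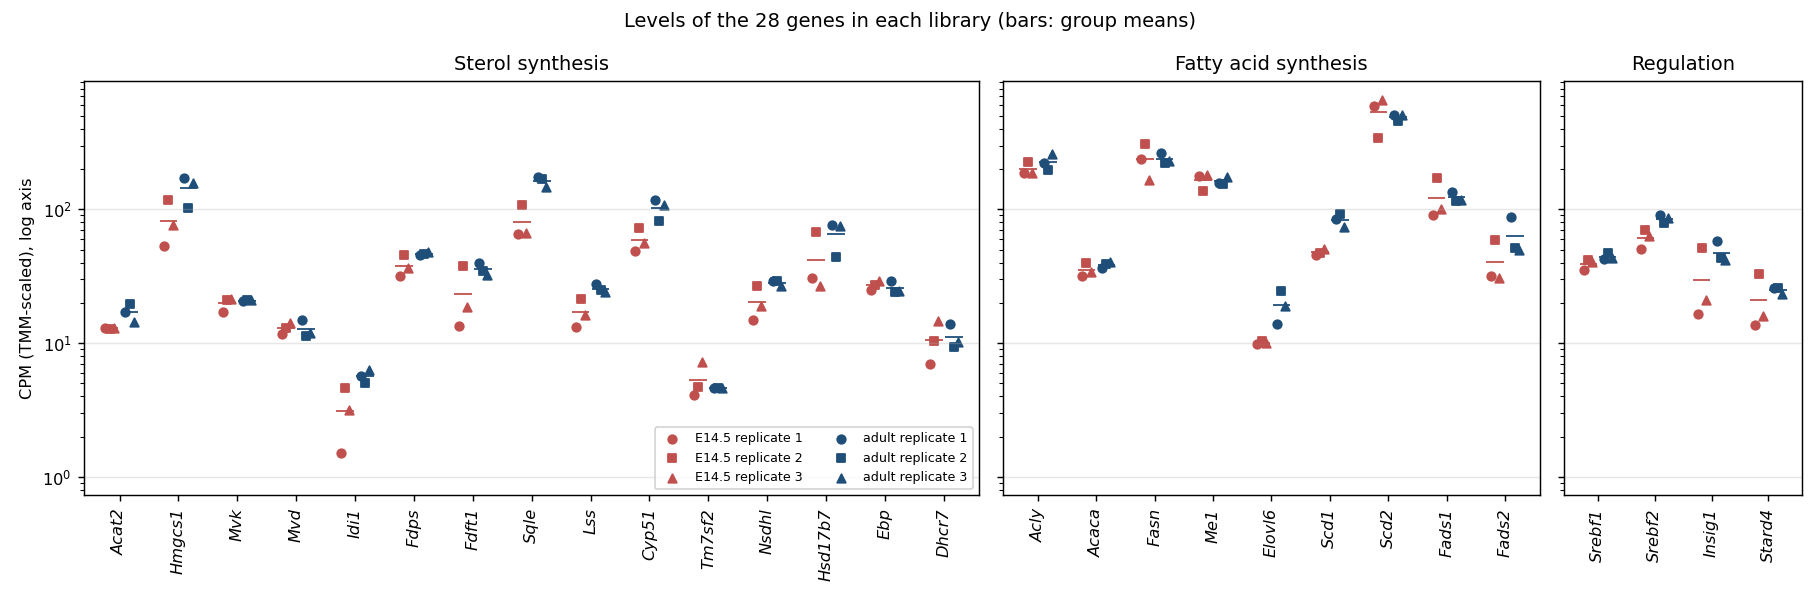
CPM on a log axis for each of the 28 genes in the 3 E14.5 (red) and 3 adult (blue) libraries, by branch; points are libraries, with a marker shape per replicate number, and short bars are group means. For Scd1 the E14.5 points lie between 45.5 and 50.6 CPM, all below the adult points, whereas for Hmgcs1, Fdft1 and Insig1 the square of E14.5 replicate 2 lies within or beside the adult points.

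Among the 15 sterol enzymes, values in E14.5 cultures were lower for most, but 0 passed edgeR's test over all genes, against the 1.08% background. At an unadjusted p under 0.05 there were 4 (Sqle, Cyp51, Lss and Hmgcs1), against 17.9% of all tested genes. DESeq2 called 2 (Sqle and Cyp51), against 5.46% called lower by that tool, and limma-voom 0, against 1.02%. The median log2 fold change was -0.49, and 12 of 15 were negative, against 48.5% of all tested genes. For 7 the E14.5 libraries were all below the adult ones, against 12.0%. Adjusted p ranged from 0.097 to 0.961.

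The steps from acetyl-CoA to mevalonate start the pathway. Acat2, for the cytosolic thiolase, measured 12.9, 12.8 and 13.1 CPM across E14.5 replicates 1, 2 and 3, and 17.1, 19.7 and 14.3 CPM in adults, without overlap (log2 fold change -0.39, SE 0.16, adjusted p = 0.284). Of the read-length windows of Acat2 transcripts, 35.6% are also found in genes elsewhere, most of all in its paralogue Acat3, so its count is uncertain. The same holds for Idi1 (18.9%), Fdps (23.8%), Acaca (44.2%) and Me1 (21.5%), which share windows with genes named Gm. Hmgcs1, for HMG-CoA synthase, measured 53.6, 117 and 76.0 CPM at E14.5 and 171, 103 and 158 CPM in adults. Its log2 fold change was -0.81 (SE 0.33, adjusted p = 0.271), and E14.5 replicate 2 lay above adult replicate 2, so the groups overlapped.

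The following enzymes turn mevalonate into isoprenoid units and join them. Mvk, for mevalonate kinase, measured 17.2, 21.0 and 21.4 CPM at E14.5 and 20.6, 20.9 and 21.0 CPM in adults, a log2 fold change of -0.06 (SE 0.13). Mvd, for mevalonate diphosphate decarboxylase, measured 13.0 ± 1.15 and 12.7 ± 2.00 CPM (SD, n = 3 each), a log2 fold change of 0.03 (SE 0.18). The groups overlapped for both, with adjusted p of 0.871 and 0.961. Idi1, for isopentenyl diphosphate isomerase, measured 1.50, 4.59 and 3.18 CPM at E14.5 and 5.72, 5.07 and 6.29 CPM in adults. Its log2 fold change of -0.88 (SE 0.43, adjusted p = 0.361) rests on few reads, 48 counts in E14.5 replicate 1. Fdps, for farnesyl diphosphate synthase, measured 31.7, 45.8 and 36.6 CPM against 45.8, 46.7 and 47.6 CPM (log2 fold change -0.30, SE 0.15, adjusted p = 0.384), where the highest E14.5 library nearly met the lowest adult one.

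The next enzymes commit the pathway to sterols by making squalene and lanosterol. Fdft1, for squalene synthase, measured 13.4, 37.6 and 18.5 CPM at E14.5 and 40.0, 34.3 and 32.4 CPM in adult cultures (log2 fold change -0.62, SE 0.38, adjusted p = 0.476). E14.5 replicate 2 lay among the adults, and the other E14.5 libraries were lower. Ctsb, on the opposite strand, overlaps Fdft1, and 32.6% of the stranded counts of Fdft1 were on the forward strand, which is not in the values given here. Sqle, for squalene epoxidase, a rate-limiting enzyme, measured 65.4, 108 and 66.1 CPM at E14.5 and 174, 170 and 148 CPM in adults. Its gene spans 59315077 to 59331192 of chromosome 15 (mm10, plus strand). The groups did not overlap. The log2 fold change of Sqle, -1.04 with an SE of 0.22, was the lowest of the 28, with an adjusted p of 0.097 in edgeR, which misses the threshold, and of 0.0016 in DESeq2. Lss, for lanosterol synthase, measured 13.2, 21.4 and 16.2 CPM at E14.5 and 27.5, 24.8 and 24.0 CPM in adult cultures (log2 fold change -0.59, SE 0.20, adjusted p = 0.197).

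From lanosterol to cholesterol the enzymes differed among themselves. Cyp51, for the lanosterol demethylase, on chromosome 5 from 4081145 to 4104746, measured 48.8, 72.7 and 55.6 CPM at E14.5 and 118, 81.4 and 108 CPM in adults. The groups did not overlap (log2 fold change -0.79, SE 0.21, adjusted p = 0.129 in edgeR and 0.016 in DESeq2). Nsdhl, for a sterol dehydrogenase, measured 15.0, 26.5 and 18.9 CPM at E14.5 and 29.0, 29.2 and 26.5 CPM in adult cultures (log2 fold change -0.49, SE 0.22, adjusted p = 0.316). Hsd17b7, for a sterol ketoreductase, measured 30.5, 67.4 and 26.6 CPM at E14.5 and 75.9, 43.7 and 75.2 CPM in adults, with overlap (log2 fold change -0.65, SE 0.41, adjusted p = 0.493). The other late enzymes had values near 0 on the log2 fold change scale. These were Tm7sf2, for a sterol reductase (0.21, SE 0.29; Vps51 overlaps it on the same strand), Ebp, for a sterol isomerase (0.07, SE 0.13), and Dhcr7, for the reductase of the last step (-0.07, SE 0.31). Ebp measured 27.1 ± 2.22 CPM at E14.5 and 25.8 ± 2.83 CPM in adults (SD, n = 3 each).

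E14.5 replicate 2 stood apart from the other E14.5 libraries in this branch and in the others, and not only there. Over genes at large, it also differed more from replicates 1 and 3 than those differed from each other. It was the highest of the 3 E14.5 libraries for 9 of 15 sterol enzymes, for 6 of 9 fatty acid enzymes and for all 4 regulation and transport genes, against 35.0% of all tested genes. Summed over the 15 sterol enzymes, E14.5 replicates 1, 2 and 3 had 351, 590 and 417 CPM, while adult replicates 1, 2 and 3 had 787, 628 and 712 CPM. The sample titles carry 1 of 3 prefixes, each shared by 1 E14.5 and 1 adult library. Within the prefix shared by the libraries numbered 1, all 15 sterol enzymes were lower in the E14.5 library, with a median log2 difference of -0.99. For the libraries numbered 2 it was 7 of 15 with a median of 0.01, and for those numbered 3 it was 10 of 15 with a median of -0.49. Without E14.5 replicate 2, edgeR called 2 sterol enzymes, against 3.42% of genes in that fit. They were Sqle (log2 fold change -1.32, adjusted p = 0.017) and Fdft1 (-1.16, adjusted p = 0.046). That library was singled out from these same values, so these calls describe them and test nothing. Leaving out any other single library gave 0 sterol calls. Over the fits without 1 library, edgeR's adjusted p reached 0.289 for Sqle and 0.751 for Fdft1. All 7 mesothelial markers were also highest in replicate 2 of the E14.5 libraries, and markers of dividing cells were lowest there, at 113 CPM in sum against 197 and 430 CPM in replicates 1 and 3. Their part in the sterol values was not tested.

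**Figure D2:**
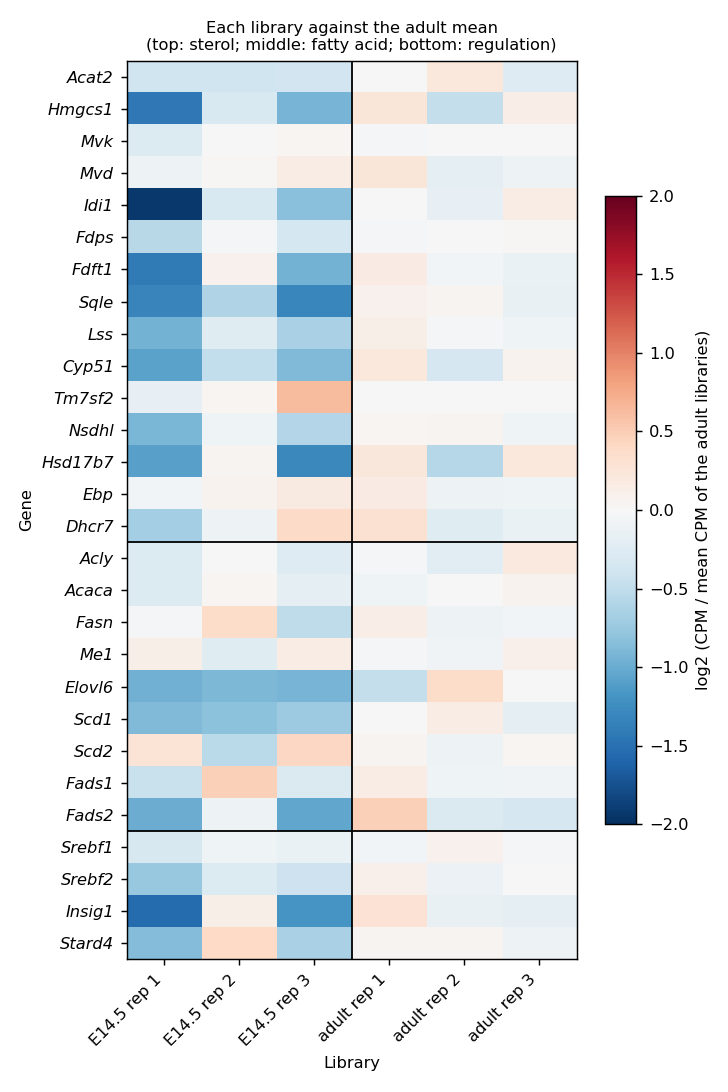
Heat map of log2 of each library's CPM over the mean CPM of the 3 adult libraries, 1 row per gene and 1 column per library (colour scale from -2 to 2; blue is lower than the adult mean). The columns of E14.5 replicates 1 and 3 are blue over most sterol rows and in Insig1, and that of replicate 2 is paler, while Scd1 and Elovl6 are blue in all 3 E14.5 columns.

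Sequences upstream of 3 of these genes are given because SREBP proteins and their partner NF-Y act at promoters, and because these genes differ in their values: Hmgcs1 and Insig1 were highest in replicate 2 among the E14.5 libraries, and Mvk had a log2 fold change near 0. They come from RefSeq on GRCm38.p6, the mm10 build, run from 250 bases before to 50 bases after the gene's start, and are written 5′ to 3′. Capitals mark CCAAT, the NF-Y box, and CACNCCAC, a core of the sterol regulatory element, on either strand (a CCAAT match on the other strand reads ATTGG). The marked motifs do not overlap in these windows. The windows are chr13:119690101-119690400, chr5:28071162-28071461 and chr5:114444019-114444318 in that order, all on the plus strand.
Hmgcs1: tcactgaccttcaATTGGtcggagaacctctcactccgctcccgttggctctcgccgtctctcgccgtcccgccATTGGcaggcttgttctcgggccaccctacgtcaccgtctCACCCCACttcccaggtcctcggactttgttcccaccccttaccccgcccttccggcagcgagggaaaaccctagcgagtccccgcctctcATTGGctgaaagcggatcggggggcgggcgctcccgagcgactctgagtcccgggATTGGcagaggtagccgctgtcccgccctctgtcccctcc
Insig1: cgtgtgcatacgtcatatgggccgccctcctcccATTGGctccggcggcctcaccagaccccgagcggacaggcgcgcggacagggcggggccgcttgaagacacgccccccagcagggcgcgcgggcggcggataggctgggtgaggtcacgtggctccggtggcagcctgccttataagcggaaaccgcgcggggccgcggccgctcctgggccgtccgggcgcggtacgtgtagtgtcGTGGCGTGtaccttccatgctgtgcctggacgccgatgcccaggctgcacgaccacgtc
Mvk: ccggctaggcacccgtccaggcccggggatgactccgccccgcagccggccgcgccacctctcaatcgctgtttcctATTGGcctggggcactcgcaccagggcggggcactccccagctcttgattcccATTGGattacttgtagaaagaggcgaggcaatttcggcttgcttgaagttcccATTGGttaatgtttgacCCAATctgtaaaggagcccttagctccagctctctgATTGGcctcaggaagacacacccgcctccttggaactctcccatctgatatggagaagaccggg

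Hmgcs1 had 4 CCAAT matches and 1 match to the sterol element core, whose first base lies 136 bases before the start. Insig1 had 1 CCAAT match and 1 core match, 9 bases before the start. Mvk had 5 CCAAT matches and no core match. Of the 28 genes, 21 were matched to the RefSeq promoter sequences used here, with 26 windows. The promoters of the other 7 (Fdps, Fdft1, Sqle, Scd1, Scd2, Fads1 and Stard4) were not analysed here. CCAAT stood in 69.2% of the 26 windows, against 37.4% of all 32851 windows and 37.4% of the windows of tested genes. The sterol element core stood in 11.5%, against 6.24% and 6.38%. Acat2 also had a core match, but was not highest in replicate 2 among the E14.5 libraries. Cyp51, Lss, Idi1, Nsdhl and Hsd17b7 had no core match and were highest there. Mvd, Ebp, Dhcr7 and Tm7sf2 had none either and were not. A link between motifs and values was not tested. GGGCGG, the GC box bound by Sp1, stood in 76.9%, against 35.7% and 61.9%. Both strands were searched, and a match of letters is a description, not a binding site.

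In the fatty acid branch, Scd1 fell, and the enzymes that make palmitate had log2 fold changes from -0.17 to 0.02. Of 9 enzymes, 1 passed edgeR's test, against 1.08% of all tested genes. DESeq2 called 2, against 5.46% called lower by that tool, and limma-voom 1, against 1.02%. Values were negative for 7, against 48.5%, and the median log2 fold change was -0.13. Acly, for ATP citrate lyase, which makes cytosolic acetyl-CoA, measured 188, 225 and 188 CPM at E14.5 and 223, 195 and 259 CPM in adults. Acaca, for acetyl-CoA carboxylase, measured 35.2 ± 4.10 CPM at E14.5 and 38.6 ± 2.14 CPM in adults (SD, n = 3 each). Fasn, for fatty acid synthase, measured 236, 308 and 167 CPM at E14.5 and 262, 223 and 231 CPM in adults, a log2 fold change of -0.01 (SE 0.23). Me1, for the malic enzyme that supplies NADPH, measured 177, 138 and 180 CPM against 157, 154 and 175 CPM (log2 fold change 0.02, SE 0.14). The groups overlapped for all 4 of these genes, with adjusted p from 0.628 to 0.987.

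The larger differences of this branch were those of Elovl6, Scd1 and Fads2, and for Fads2 the groups overlapped. Fads1 and Scd2, also enzymes of desaturation, had log2 fold changes of -0.02 and 0.11. Elovl6, for the elongase that turns palmitate into stearate, measured 9.88, 10.3 and 10.1 CPM at E14.5 and 13.8, 24.7 and 19.0 CPM in adults. The groups did not overlap (log2 fold change -0.92, SE 0.23), with an adjusted p of 0.121 in edgeR and 0.011 in DESeq2. Fads1 and Fads2 encode the desaturases of polyunsaturated fatty acids. Fads1 measured 90.5, 171 and 100 CPM at E14.5 and 136, 116 and 117 CPM in adults, and Fads2 measured 31.6, 58.8 and 30.6 CPM at E14.5 and 87.2, 51.1 and 49.9 CPM in adults. E14.5 replicate 2 was the highest E14.5 library for both, and neither passed the test (adjusted p = 0.975 and 0.413).

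Scd1 encodes stearoyl-CoA desaturase, which makes oleate from stearate, and spans 44394455 to 44407879 of chromosome 19 (mm10, minus strand). It measured 45.5, 47.2 and 50.6 CPM across E14.5 replicates 1, 2 and 3, while adult replicates 1, 2 and 3 had 84.2, 92.3 and 73.9 CPM. The E14.5 libraries lay close together, and all were below the adults. Scd1 fell by 0.81 on the log2 scale in E14.5 (SE 0.12, adjusted p = 0.042), a level 1.75-fold higher in adults. The adjusted p was 2.1e-06 in DESeq2 and 0.046 in limma-voom. Within the shared title prefixes the log2 differences were -0.89, -0.97 and -0.55. The call was lost when any 1 of 5 libraries was left out. Adjusted p was 0.0496 without E14.5 replicate 2, but 0.138 and 0.074 without E14.5 replicates 1 and 3, and 0.123, 0.106 and 0.165 without adult replicates 1, 2 and 3, with log2 fold changes from -0.89 to -0.73 over these 6 fits.

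Scd2, a paralogue of Scd1, had overlapping groups. It lies on the same chromosome from 44293674 to 44306864 on the plus strand. It measured 594, 340 and 658 CPM at E14.5 and 510, 459 and 505 CPM in adults, so that the E14.5 libraries lay on both sides of the adult ones (log2 fold change 0.11, SE 0.25, adjusted p = 0.884). E14.5 replicate 2 was here the lowest of the 6. For 9 of 15 sterol enzymes it was the highest of the E14.5 libraries, though its sterol sum of 590 CPM was below the lowest adult sum, 628 CPM. Per kilobase of exon, Scd2 exceeded Scd1 in every library, by 11.6, 6.37 and 11.5 times in E14.5 replicates 1, 2 and 3 and by 5.36, 4.41 and 6.05 times in adult replicates 1, 2 and 3. Scd1 made up 7.95%, 13.6% and 7.99% of the sum of both per kilobase in E14.5 and 15.7%, 18.5% and 14.2% in adults, without overlap. Few read-length windows of Scd1 (3.20%) or Scd2 (1.80%) are found in genes at other places.

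**Figure D3:**
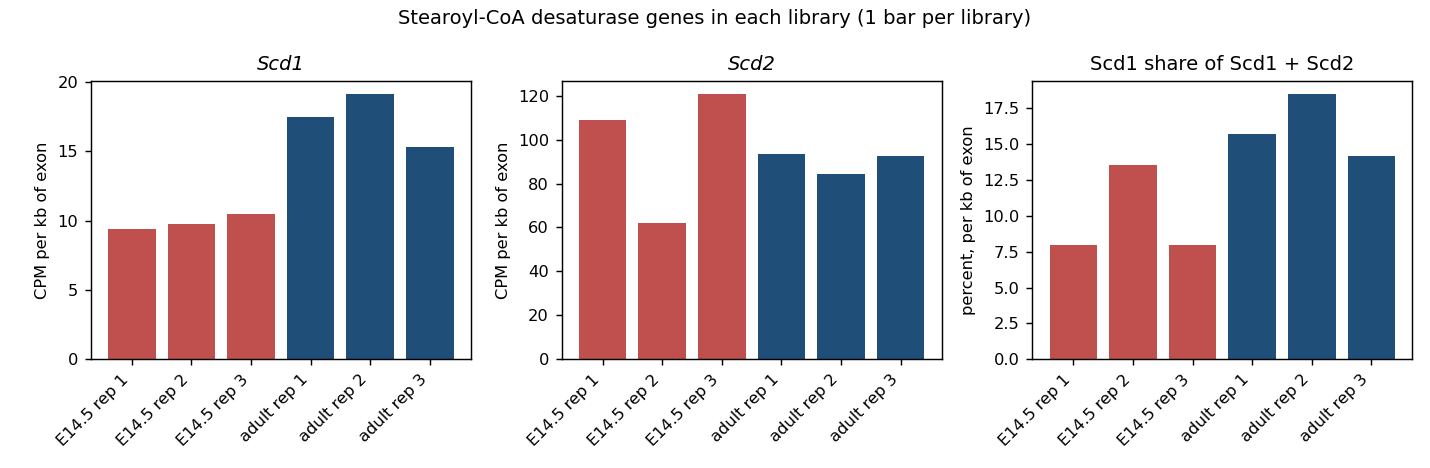
Scd1 level, Scd2 level (both CPM per kilobase of exon) and the Scd1 share of their sum (percent) in each library, 1 bar per library (red E14.5, blue adult; axes start at 0). Scd1 is at 9.41 to 10.5 in E14.5 and 15.3 to 19.1 in adults, whereas Scd2 is at 62.2 to 121 and 84.2 to 93.4.

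Adipocyte markers give the context for Scd1 and Elovl6, which fat cells express strongly. Of 10 listed, Cidec and Cfd had 0 counts in all libraries, and Adipoq reached at most 0.099 CPM and Plin1 at most 0.031 CPM. Lpl, which other cells also express, measured 23.7, 68.5 and 94.8 CPM at E14.5 and 126, 226 and 119 CPM in adults, and Pparg measured 1.16, 1.46 and 5.72 CPM against 6.85, 14.5 and 11.9 CPM. Cebpa, which myeloid cells also express, had the opposite order, with 5.41, 9.40 and 40.6 CPM against 2.92, 1.54 and 1.55 CPM. Fabp4, the other marker tested, measured 0.719 to 2.10 CPM at E14.5 and 0.454 to 3.97 CPM in adults. In edgeR 0 of these 4 passed the test (adjusted p = 0.259, 0.208, 0.132 and 0.712 in that order), and DESeq2 called Pparg lower (adjusted p = 0.029) and Cebpa higher (4.4e-04) in E14.5. The list summed to 31.0 to 143 CPM at E14.5 and 135 to 246 CPM in adults. The part of such cells in the Scd1 values was not tested. Without adult replicate 2 and E14.5 replicate 3 together, which had the highest endothelial and leukocyte marker sums, Scd1 had a log2 fold change of -0.78 and no longer passed edgeR's test (adjusted p = 0.124).

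Of the 4 genes for regulation and transport, 0 passed edgeR's test, against 1.08% of all tested genes. DESeq2 called 0, against 5.46% called lower by that tool, and limma-voom 0, against 1.02%. With 4 genes such shares leave 0 calls likely. At an unadjusted p under 0.05 there was 1, against 17.9% of all tested genes. All 4 had negative values, against 48.5%, with a median of -0.37. Srebf2 measured 50.2, 70.1 and 63.6 CPM at E14.5 and 91.0, 78.7 and 85.5 CPM in adults, without overlap (log2 fold change -0.47, SE 0.15, adjusted p = 0.175). Srebf1 measured 35.2, 41.5 and 40.4 CPM at E14.5 and 42.7, 46.9 and 43.1 CPM in adults, also without overlap but with a smaller difference (-0.18, SE 0.11, adjusted p = 0.485). Insig1, itself a target of SREBP and the retention protein of the system, measured 16.4, 51.6 and 21.0 CPM at E14.5 and 58.0, 43.0 and 41.7 CPM in adults. E14.5 replicate 2 exceeded the mean of the other E14.5 libraries by 1.46 on the log2 scale, the largest such difference of the 28 genes. The log2 fold change of Insig1 was -0.68 (SE 0.44, adjusted p = 0.503) with all libraries and -1.35 (adjusted p = 0.041) without that library. In the latter edgeR fit, 3.42% of genes passed, and the library left out was singled out from these values. Over all fits without 1 library, the log2 fold change of Insig1 ran from -1.35 to -0.39 and its adjusted p from 0.041 to 0.784. Stard4, for a cytosolic sterol carrier, measured 13.7, 33.0 and 16.0 CPM against 26.0, 25.9 and 23.3 CPM (adjusted p = 0.771), with E14.5 replicate 2 the highest of the 6.

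**Figure D4:**
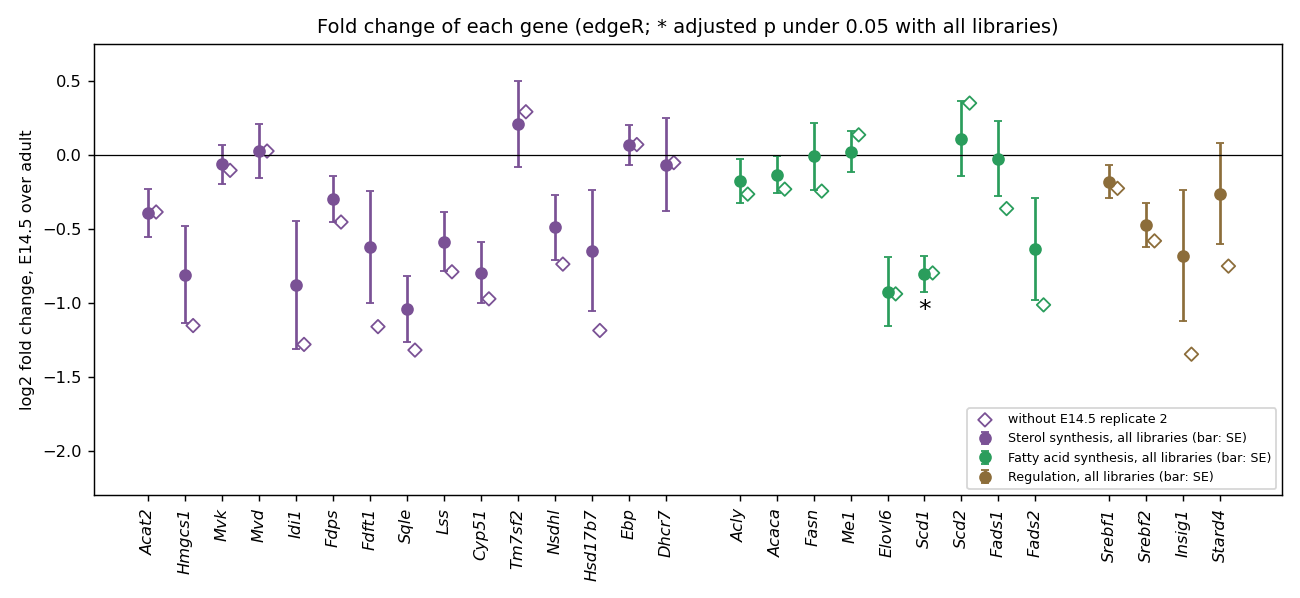
Log2 fold change, E14.5 over adult, of each gene with all libraries (filled circles, bars are SE) and without E14.5 replicate 2 (open diamonds), coloured by branch; the asterisk marks an adjusted p under 0.05 with all libraries. The diamond lies lower than the circle by over 0.5 for Fdft1, Hsd17b7 and Insig1, and lies on it for Scd1 (-0.80 against -0.81).

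Per kilobase of exon, where genes can be compared, Scd2 had the highest level of the 28 in both groups, at 97.3 CPM per kilobase in E14.5 and 90.1 in adults. Me1 (45.6 and 44.9), Acly (43.4 and 49.0) and Fads1 (34.9 and 35.5) were among the 6 highest in both. Sqle ranked 5 in E14.5, at 28.9, and 2 in adults, at 59.4. Hmgcs1 measured 23.6 and 41.4. Idi1 was lowest in both groups, at 1.02 and 1.88.

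Further genes of sterol synthesis and uptake, not among the 28, had mostly lower values in E14.5 as well, without passing the test. For the further lists, the shares of all tested genes were 1.08% in edgeR, 17.9% at its unadjusted p under 0.05 and 1.02% in limma-voom. The log2 fold change was negative for 48.5% of all tested genes. In DESeq2, 5.46% were called lower, and 691 of 13478 genes higher, in E14.5. Of 14 further genes of sterol synthesis and uptake, 0 passed edgeR's test (1 at an unadjusted p under 0.05, 1 in DESeq2, 0 in limma-voom), 13 were negative and the median log2 fold change was -0.28. E14.5 replicate 2 was again often the highest E14.5 library, for 9 of the 14 against the 35.0% of all tested genes. The gene called by DESeq2 was Lbr, for a sterol reductase of the inner nuclear membrane, named after its values were seen (13.9, 13.9 and 17.8 CPM at E14.5, 22.2, 25.1 and 21.3 CPM in adults). Without E14.5 replicate 2, Sc5d, for a sterol desaturase and also named after its values were seen, had a log2 fold change of -1.06 (adjusted p = 0.035 in edgeR). In that fit 3.42% of genes passed, and the library left out was singled out from these data.

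Of 7 genes for the machinery that carries and cleaves SREBP, 0 passed edgeR's test (0 at an unadjusted p under 0.05, 0 in DESeq2, 0 in limma-voom), and log2 fold changes ran from -0.19 to 0.05. Scap, for the escort protein of SREBP, measured 49.4, 62.8 and 41.2 CPM at E14.5 and 55.9, 51.2 and 46.6 CPM in adults. Insig2, the paralogue of Insig1, measured 49.3, 71.7 and 41.4 CPM against 60.9, 62.9 and 60.9 CPM (log2 fold change -0.19, SE 0.21).

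Among 15 genes that are targets of the sterol receptor LXR or handle sterol export and storage, 0 passed edgeR's test (2 at an unadjusted p under 0.05, 1 in DESeq2, 0 in limma-voom), and 10 had positive values. Abca1, for the main cholesterol exporter, measured 48.6, 40.1 and 113 CPM at E14.5 and 62.3, 76.0 and 43.2 CPM in adult cultures (log2 fold change 0.15, SE 0.43). Abcg1, another exporter gene, named after its values were seen, was the 1 gene that DESeq2 called, and measured 9.01, 4.03 and 16.8 CPM in E14.5 against 1.36, 2.68 and 1.44 CPM (2.45, SE 0.60, adjusted p = 0.120 in edgeR). Apoe, for a lipoprotein component that macrophages make in quantity, was the other gene at an unadjusted p under 0.05. Its levels, also named after they were seen, were 153, 194 and 2124 CPM against 25.4, 81.9 and 36.6 CPM (adjusted p = 0.156 in edgeR). DESeq2 gave no adjusted p for Apoe. E14.5 replicate 3, the highest library for these 3 genes, also held the most macrophage and leukocyte markers, and their part in these values was not tested.

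Of 28 other genes of fatty acid and glyceride synthesis, 22 were tested, 14 of them with negative values. Of the 22, 0 passed edgeR's test (2 at an unadjusted p under 0.05, 2 in DESeq2, 0 in limma-voom), with a median log2 fold change of -0.12. Both genes at that p, named after their values were seen, were also those DESeq2 called. Gpam, for the first acyltransferase of glycerolipid synthesis, measured 12.2, 9.74 and 19.9 CPM at E14.5 and 53.8, 30.1 and 41.0 CPM in adults, without overlap (-1.58, SE 0.33, adjusted p = 0.097 in edgeR and 2.9e-04 in DESeq2). Mcat, for a mitochondrial malonyltransferase, had the opposite sign (0.44, SE 0.14, adjusted p = 0.176). Elovl5, for an elongase of polyunsaturated fatty acids, measured 64.2, 61.0 and 64.5 CPM at E14.5 and 82.2, 71.6 and 62.2 CPM in adult cultures (log2 fold change -0.19, SE 0.13). Acss2, for the cytosolic acetyl-CoA synthetase, measured 4.44, 4.44 and 4.97 CPM against 5.15, 4.92 and 3.90 CPM. Of 18 genes of fatty acid oxidation, 17 were tested, 12 of them with positive values. Of the 17, 0 passed edgeR's test (1 at an unadjusted p under 0.05, 0 in DESeq2, 0 in limma-voom) and the median was 0.09. That 1 gene, named after its values were seen, was Acads, for a short-chain acyl-CoA dehydrogenase (0.48, SE 0.16, adjusted p = 0.194). Cpt1a, for the enzyme that admits fatty acids to mitochondria, measured 95.9, 86.8 and 97.0 CPM at E14.5 and 116, 109 and 99.2 CPM in adults (-0.21, SE 0.11, adjusted p = 0.382).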

How the data were processed

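The authors deposited unnormalized whole-number read counts per gene, 1 table per library, from stranded poly(A) libraries read over 75 bp from a single end, per the labels' protocols. Reads were aligned with STAR to mm10, per the submitters' processing notes. For the STAR version and the annotation, nothing is stated (not given in the sources used here). Of the 3 deposited count columns, the reverse-strand column was used, since 1.33% to 1.69% of stranded counts were on the forward strand. Rows that name no gene held 17.4% to 19.8% of counts and were left out. Replicates were numbered in accession order, and p-values measure the spread between these cultures, which may be technical.

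Counts were tested in R 4.3.3 with edgeR 4.0.16 (filterByExpr, TMM, robust quasi-likelihood test, Benjamini-Hochberg over 13478 genes, threshold 0.05). The SE is the log2 fold change over the square root of F. DESeq2 1.42.0 and limma 3.58.1 (voom) were alternatives, besides other scalings, filters and column choices and fits without single libraries. Of these steps, only the edgeR fit was tested on simulated counts, with the outcome not reported here. The members and gene lists were chosen with earlier results of these data known. All 28 members, 6 further genes fixed by name and any listed gene past the threshold were to be named, and some further genes of that rule are not reported here. Positions and exon lengths are from GENCODE M21 (GRCm38), which may differ from the authors' annotation. Shared windows are 75-base stretches also found in a transcript of a gene at another place. The labels do not explain the title prefix, so it was used as a block only in an alternative fit. Libraries with the same title prefix did not deviate together (correlations of -0.14, -0.23 and -0.088 over genes). Libraries of 1 group differed by far more than counting noise.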

Additional observations from a re-analysis of the deposited data

How the results depend on the processing

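The median log2 fold change stayed negative under every alternative that gives fold changes of its own, which the 2-fold test and the 0.01 threshold do not, for the sterol (-0.74 to -0.34), fatty acid (-0.26 to -0.07) and regulation and transport genes (-0.67 to -0.24), but counts of calls moved. Against 146 genes in edgeR, DESeq2 called 1427, a test against a 2-fold change 18, an adjusted p of 0.01 left 2, and fits without 1 library gave 3 (without E14.5 replicate 1 or adult replicate 3) to 471 (without E14.5 replicate 2). With adult replicate 2 and E14.5 replicate 3 both left out it was 36. Of the sterol enzymes, DESeq2 called 2 and fits without 1 library 0 to 2. Of the fatty acid enzymes, DESeq2 called 2, and 0 were called under upper-quartile scaling (Scd1 adjusted p = 0.056), library size alone (0.091), the 2-fold test, the 0.01 threshold and without both libraries (0.124), and 0 to 1 without 1 library. Of the regulation and transport genes it was 0 to 1 without 1 library. The causes were not tested.

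With the title prefix as a replicate block, 2 genes in all and 0 fatty acid enzymes passed (Scd1 adjusted p = 0.158). The prefix is not known to pair the cultures.

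Genes with values near 0 changed sign. Without both libraries the log2 fold change was -0.12 for Mvd, -0.066 for Tm7sf2, -0.048 for Ebp, 0.14 for Fasn, -0.086 for Me1, -0.13 for Scd2, 0.048 for Fads1, 0.13 for Scap and -0.26 for Abca1. Upper-quartile scaling and library size alone gave 0.024 and 0.027 for Fasn, 0.014 and 0.018 for Fads1, 0.033 and 0.034 for Scap, and 0.026 and 0.030 for Acss2. For Scap, DESeq2's size factors gave 0.0051 and DESeq2 0.0051, and for Acss2 limma-voom gave 0.0050. Without 1 library in turn the ranges were -0.12 to 0.024 for Mvk, -0.054 to 0.16 for Mvd, -0.060 to 0.35 for Tm7sf2, -0.36 to 0.15 for Dhcr7, -0.24 to 0.19 for Fasn, -0.043 to 0.14 for Me1, -0.072 to 0.35 for Scd2, -0.36 to 0.14 for Fads1, -0.18 to 0.13 for Scap, -0.45 to 0.42 for Abca1 and -0.13 to 0.066 for Acss2. Depth limits mainly Idi1, Acss2 and Tm7sf2, which have the fewest reads of the 28 genes and the 6 further ones.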
